A study of Arabidopsis thaliana with 10 samples.

Results

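STR18, GR1, GRXC2 and MSRB5 encode 4 enzymes of sulfur transfer and thiol redox chemistry, and their transcripts were followed in Arabidopsis thaliana roots over 5 combinations of genotype and sulfate supply. The 4 genes were chosen by name, with earlier results of these same arrays known, from 12875 genes that had a probe set of their own on the ATH1 array, a short-oligonucleotide array. Each of STR18 (AT5G66170), GR1 (AT3G24170), GRXC2 (AT5G40370) and MSRB5 (AT4G04830) was measured by 1 probe set annotated to it alone. The symbol GR1 also belongs to another locus in the RefSeq table, so the probe set was matched through its Entrez identifier.

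Sulfate taken up by roots is reduced to sulfide and built into cysteine, from which glutathione is made. Glutathione carries much of the reducing power for thiols in the cell, so sulfur supply and redox chemistry meet in it. STR18 is a small sulfurtransferase with a rhodanese domain, which hands on a sulfur atom held as a persulfide on a cysteine. GR1 is the glutathione reductase of the cytosol and peroxisomes and regenerates glutathione from its oxidised form with NADPH. GRXC2 is a cytosolic glutaredoxin, which uses glutathione to reduce disulfides and to remove glutathione from proteins. MSRB5 is a methionine sulfoxide reductase of the B type, which repairs oxidised methionine in proteins.

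The plants were 2 lines that overexpress SDI1 (SDI1ox-6 and SDI1ox-12, here OX), 2 lines of a double knockout of SDI1 and SDI2 (sdi1sdi2-1 and sdi1sdi2-4, here KO) and the wild type Columbia (Col). SDI1 and SDI2 are named for their induction when sulfur is deficient. Seeds were sown straight onto agar with 15 µM sulfate (-S) or 1500 µM sulfate (+S), with magnesium kept equal by chloride salt, and roots were taken after 10 days. KO and Col were grown on both media and OX on +S only, which gave 5 groups of 2 arrays: OX at +S, KO at -S, KO at +S, Col at -S and Col at +S. In OX and KO the 2 arrays are 2 plant lines. Whether the 2 Col arrays of a medium are independent cultures is not given by the labels. The spread comes from a single fit over all 10 arrays, so the p-values of every comparison may in part measure a technical spread. The promoter behind the overexpressed SDI1 and the sites of the knockout insertions are not given in the sources used here.

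Levels below are on a log2 scale converted from the deposited log10 values, whose zero point is unknown, so a level has meaning only against other levels of the same probe set. Group values are means ± SD with n = 2, and differences are log2 differences ± SE of a limma fit with 5 group means over the 10 arrays. A difference past the threshold has a Benjamini-Hochberg adjusted p under 0.05 over 22197 probe sets. For the 4 chosen genes such differences are a description, because the genes were picked with results of the same arrays in view, and no p-value is given for them. The comparisons share arrays, so a group that lies high or low enters more than 1 of them. In whole roots, fewer cells of a type and less RNA per cell cannot be told apart.

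The knockout of SDI2 and the sulfate treatment were checked in the data. The knockout of SDI1 and the OX label were not, since no probe set was annotated to SDI1. AT1G04770, the SDI2 locus, lay at 0.31 and -1.52 on the KO arrays at -S, against 5.65 and 5.47 on the Col arrays at -S, a difference of -6.16 ± 0.50 (limma adjusted p = 0.00021). At +S it lay at -0.35 and -1.16 in KO, against 1.83 and 1.57 in Col. That difference, -2.45, did not pass the threshold described above, nor did its interaction of genotype and sulfate, -3.71, in the main setting. On both arrays of KO line 4 AT1G04770 lay under background, which is the 0.95 quantile of 22 bacterial control probe sets on the same array. On those of line 1 it lay above background, at 0.31 against -0.58 at -S and at -0.35 against -0.51 at +S. Background ran from -0.58 on KO -S line 1 to 0.37 on Col -S 2, so equal levels can fall on either side of it. BGLU28, a beta-glucosidase gene that marks sulfur shortage, was at least 457-fold higher at -S than at +S in KO and at least 365-fold higher in Col. Correlations within groups ran from 0.9904 to 0.9959, with 0.972 as the lowest between any arrays. A listed gene counts as measured only where a probe set with values was annotated to it alone. Of 22810 probe sets, 8794 had no annotated gene and 503 had several, so a gene not measured may still have been expressed. Of 10 root marker genes 2 were measured, PYK10 and EXPA7, and both lay above background on every array. Of 11 shoot marker genes 4 were measured, of which PRK lay under background on every array.

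**Figure D1:**
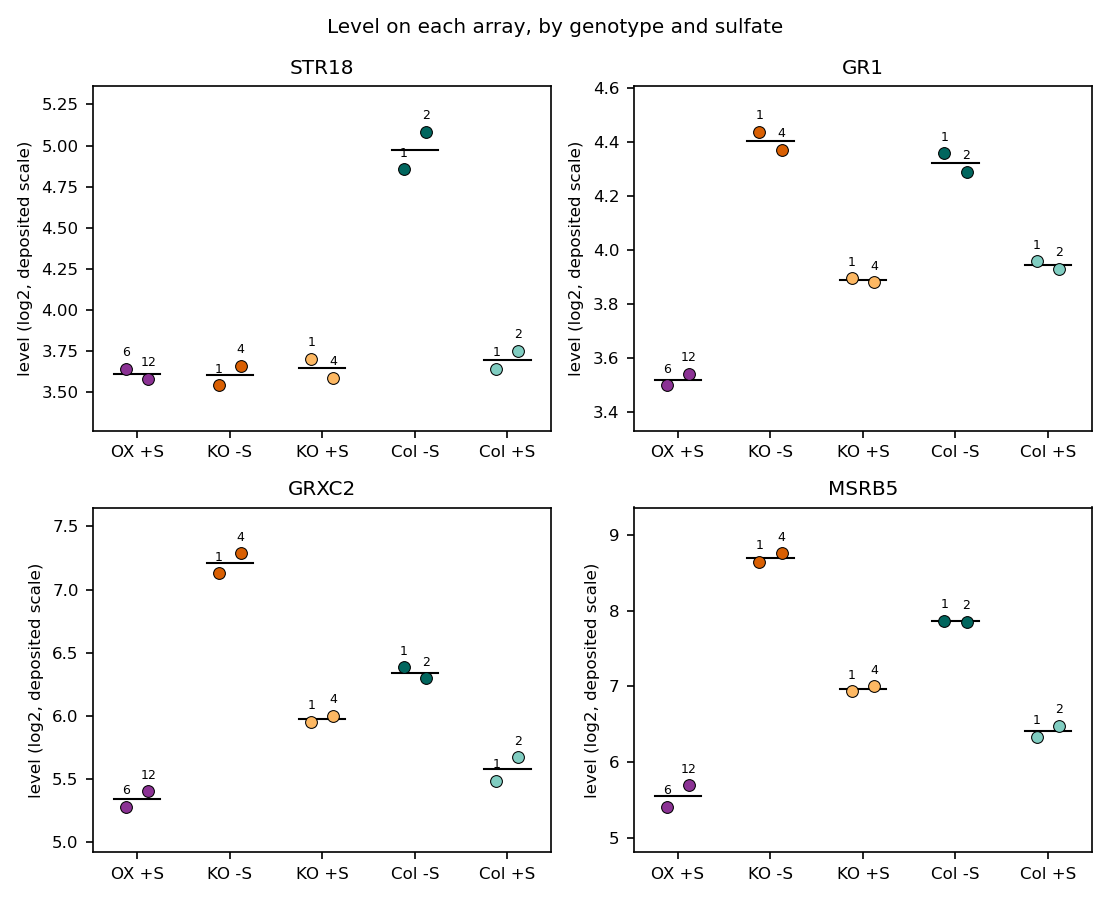
Levels (log2) of STR18, GR1, GRXC2 and MSRB5 on each array, in the order OX +S, KO -S, KO +S, Col -S and Col +S; points are arrays and bars are means of 2 arrays. STR18 stands at 4.86 and 5.08 on the Col -S arrays only, while MSRB5 runs over 3.14 log2 units from its OX +S mean to its KO -S mean.

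STR18 was high in 1 group alone. Its levels were 3.64 and 3.58 in OX at +S, 3.54 and 3.66 in KO at -S, 3.70 and 3.59 in KO at +S, 4.86 and 5.08 in Col at -S, and 3.64 and 3.75 in Col at +S. Both Col arrays at -S lay above all 8 others, and the 4 remaining groups overlapped with each other except OX and Col at +S, whose nearest arrays meet at 3.64 after rounding. In order of their means, Col at -S stood at 4.97 ± 0.16, Col at +S at 3.70 ± 0.08, KO at +S at 3.65 ± 0.08, OX at +S at 3.61 ± 0.04 and KO at -S at 3.60 ± 0.08. Neighbours in that order below Col at -S did not differ beyond their spread. The range from the lowest to the highest group was 2.58-fold.

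In Col, STR18 was 2.42-fold higher at -S than at +S (1.27 ± 0.11), at 1.21 and 1.33 for the arrays of the same number. In KO the same comparison gave -0.04 ± 0.11, with -0.16 in line 1 and 0.07 in line 4, and the arrays of the 2 media overlapped. At -S, STR18 was lower in KO than in Col by 1.37 ± 0.11 on the log2 scale, the 17th lowest difference among 22197 probe sets. The difference between the KO and the Col response to low sulfate, the interaction of genotype and sulfate, was -1.32 ± 0.16. At +S, STR18 differed from Col by -0.05 ± 0.11 in KO and by -0.09 ± 0.11 in OX. Its 3 differences past the threshold held under every alternative and every omission of an array, with the interaction between -1.43 and -1.20 over the omissions. EXPA7, a root hair expansin among the root markers, was likewise higher at -S in Col (0.76 ± 0.14, limma adjusted p = 0.011), stood at 0.19 ± 0.14 in KO (limma adjusted p = 0.56), and at -S lay at -0.64 ± 0.14 in KO against Col (limma adjusted p = 0.051). The Col call of EXPA7 was lost without Col +S 1 or Col -S 1 (0.58 to 0.93 over the omissions) and in a fit on the Col arrays alone. Its difference between KO and Col at -S (-0.73 to -0.55 over the omissions) was called without Col +S 1 or Col +S 2, after quantile normalization, once the dimmest probe sets were left out, and with an intensity trend and robust variances. Its part in the STR18 result was not tested.

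No other measured sulfurtransferase was called in the direction of STR18. Of the 20 genes in the list of this family, 13 besides STR18 were measured, and 4 of the 13 lay under background throughout the groups of each comparison. In KO 1 of the 13 fell at -S: TROL, a thylakoid protein with a rhodanese-like domain, by 0.67 ± 0.12 (limma adjusted p = 0.012), with 1 of the 2 KO arrays at -S above background. In Col 2 of the 13 fell at -S, AT2G40760 by 0.45 ± 0.11 (limma adjusted p = 0.034) and AT4G27700 by 0.50 ± 0.12 (limma adjusted p = 0.038), the second with 1 of the 2 Col arrays at -S above background. Of all probe sets, 3.5% were lower past the threshold in KO and 5% in Col. None of the 13 rose in either genotype, and none passed the threshold in KO against Col at -S, in OX against Col or in the interaction. AT2G21045 lay at 5.24 and 5.11 in KO at -S, against 5.52 and 5.46 in Col at -S, a difference of -0.31 ± 0.11 (limma adjusted p = 0.19). Its response to low sulfate was -0.19 ± 0.11 in KO and 0.11 ± 0.11 in Col (limma adjusted p = 0.42 and 0.61). AT2G17850 lay under background in all groups and gives no direction. The median difference of the 13 at -S against +S was -0.19 in KO and -0.06 in Col, beside 0.00028 and 0.018 over all probe sets. The call of TROL was lost without KO +S line 1, KO +S line 4 or KO -S line 4, with differences from -0.77 to -0.57 over the omissions. The calls of AT2G40760 and AT4G27700 were lost when any 1 of the 8 Col and KO arrays was left out, with -0.54 to -0.36 and -0.57 to -0.43 over the omissions. Both were also lost with the replicate block and in a fit on the Col arrays alone. With array weights AT4G27700 lost its call in Col and was called lower at -S in KO.

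GR1 followed sulfate supply in both genotypes, in small steps. Its levels were 3.50 and 3.54 in OX at +S, 4.44 and 4.37 in KO at -S, 3.90 and 3.88 in KO at +S, 4.36 and 4.29 in Col at -S, and 3.96 and 3.93 in Col at +S. The 4 arrays grown at -S lay above the 6 grown at +S, and the 2 OX arrays lay below all others. Means ran from 4.41 ± 0.05 in KO at -S through 4.32 ± 0.05 in Col at -S, 3.95 ± 0.02 in Col at +S and 3.89 ± 0.01 in KO at +S to 3.52 ± 0.03 in OX at +S. The arrays of neighbouring groups did not overlap, although the gaps between the genotypes at -S (0.08) and at +S (0.06) were smaller than the SE of the difference, 0.09.

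At -S, GR1 was higher than at +S by 0.52 ± 0.09 in KO and by 0.38 ± 0.09 in Col. By plant line the differences were 0.54 and 0.49 in KO, and by label number 0.40 and 0.36 in Col. KO stood at 0.08 ± 0.09 against Col at -S and at -0.06 ± 0.09 at +S, and the interaction was 0.14 ± 0.13. OX at +S was 0.42 ± 0.09 lower than Col at +S, with no overlap of arrays, short of the threshold in the main setting. It passed once the dimmest probe sets were left out and with an intensity trend and robust variances. The GR1 call in KO was lost without KO +S line 1, KO +S line 4 or KO -S line 1, where all omissions gave 0.48 to 0.55. The call in Col was lost without any 1 of the 4 Col arrays or either KO +S array, where all omissions gave 0.34 to 0.41, and the difference of 0.38 also lost its call with the replicate block and in a fit on the Col arrays alone.

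Of 25 genes in the list of glutathione synthesis, turnover and reduction, only GR1 and GR2 (AT3G54660) had a probe set annotated to them alone. The expression of the others was not read. GR2, the glutathione reductase of plastids and mitochondria, took another course. It lay at 3.29 and 3.44 in KO at -S, 2.70 and 2.77 in KO at +S, 2.56 and 2.48 in Col at -S, and 3.05 and 2.80 in Col at +S. In KO it rose at -S by 0.63 ± 0.14 (limma adjusted p = 0.026), while in Col the difference was -0.40 ± 0.14 (limma adjusted p = 0.11). At -S it was higher in KO than in Col by 0.84 ± 0.14 (limma adjusted p = 0.013). The interaction, 1.04 ± 0.19, missed the threshold (limma adjusted p = 0.056), but passed it once the dimmest probe sets were left out and with an intensity trend and robust variances. The KO call was lost without any 1 of the 4 KO arrays (0.55 to 0.71 over all omissions) and with the replicate block, and the call at -S without Col -S 2, KO -S line 1 or KO -S line 4 (0.77 to 0.92) and in a fit on the arrays compared alone.

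GRXC2 was higher at low sulfate in both genotypes and higher still in KO. Its levels were 5.28 and 5.40 in OX at +S, 7.13 and 7.29 in KO at -S, 5.96 and 6.00 in KO at +S, 6.38 and 6.30 in Col at -S, and 5.49 and 5.67 in Col at +S. No group overlapped with another. From highest to lowest, the means were KO at -S (7.21 ± 0.11), Col at -S (6.34 ± 0.06), KO at +S (5.98 ± 0.03), Col at +S (5.58 ± 0.13) and OX at +S (5.34 ± 0.09), a range of 3.65-fold. The smallest step, between Col at +S and OX at +S, was 0.24 ± 0.11 by the fit.

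The response of GRXC2 to low sulfate was 1.23 ± 0.11 in KO, at 1.17 in line 1 and 1.29 in line 4. In Col it was 0.76 ± 0.11, at 0.90 and 0.63. At -S, GRXC2 was higher in KO than in Col by 0.87 ± 0.11, and at +S by 0.40 ± 0.11, of which only the difference at -S passed the threshold. The interaction, 0.47 ± 0.15, did not pass it. Its calls in both responses held under every alternative and every omission of an array. The call in KO against Col at -S, at 0.87, held under all of these except a fit on the 4 arrays of those 2 groups alone, in which it was lost.

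The closest cytosolic relative of GRXC2, the glutaredoxin GRXC1 (AT5G63030), stood at 2.23 and 2.00 in KO at -S, 2.60 and 2.51 in KO at +S, 2.26 and 1.90 in Col at -S, and 2.18 and 2.38 in Col at +S. Its response to low sulfate was -0.44 ± 0.15 in KO (limma adjusted p = 0.14) and -0.20 ± 0.15 in Col (limma adjusted p = 0.46). At -S it differed by 0.04 ± 0.15 between KO and Col (limma adjusted p = 0.92). GRXC1 overlapped between the 2 genotypes at -S and GRXC2 did not, where 44.6% of all probe sets did not overlap in either direction.

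Of 30 listed glutaredoxins, 20 besides GRXC2 were measured. At -S 4 of the 20 rose in KO and none was lower past the threshold. In Col 3 rose and 3 were lower past the threshold, of which 2, AT3G62960 and AT4G15700, have no measured fall. AT3G62960 lay under background at -S and gave no bound above it, and AT4G15700 lay under background on every array. The third, ROXY2, was at least 1.62-fold lower at -S (limma adjusted p = 0.03). ROXY2 and AT4G15700 are named outside the rule for named genes, after their values were seen. Both groups of a comparison lay under background for 5 of the 20 in KO and 9 in Col. Of all probe sets 6.42% passed the threshold in KO and 9.44% in Col. AT2G30540 lay at 1.62 and 1.72 in KO at -S and at 1.48 and 0.96 in Col at -S, and under background on all +S arrays. It was at least 4.53-fold higher at -S in KO (limma adjusted p = 1.4e-05) and at least 3.11-fold higher in Col (limma adjusted p = 9.2e-05). AT4G33040 rose by 0.96 ± 0.11 in KO, where 1 of the 2 arrays at +S was above background (limma adjusted p = 0.00085), and was at least 2.12-fold higher at -S in Col (limma adjusted p = 0.00018). For AT5G11930 the lower bound so computed was 1.25-fold higher at -S in KO and 1.66-fold higher in Col (limma adjusted p = 0.0007 and 0.00025). In each genotype only 1 of 2 arrays at -S was above its own background and the other also entered the brighter mean, so neither bound is firm. AT1G03020 was at least 1.35-fold higher at -S in KO (limma adjusted p = 0.007), a call that was lost without KO +S line 1, with fitted differences of 1.18 to 1.86 over the omissions. The calls of AT2G30540, AT4G33040 and AT5G11930 held under every alternative and omission. The median difference of the 20 was -0.03 in KO and -0.12 in Col.

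AT3G62960, another listed glutaredoxin, lay at -0.19 and -0.29 in KO at -S, -0.23 and -0.10 in KO at +S, -1.49 and -1.31 in Col at -S, and -0.21 and 0.20 in Col at +S. Both Col arrays at -S were under background, which was -0.28 and 0.37 there. On average, neither Col at +S nor KO at -S exceeded that background, so no bound on a fold could be given. Although the fit called it lower at -S in Col, higher in KO than in Col at -S, and for the interaction (limma adjusted p = 0.00054, 0.0032 and 0.024), these values give no measured size or difference.

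MSRB5 had the widest range of the 4. Its levels were 5.41 and 5.70 in OX at +S, 8.64 and 8.76 in KO at -S, 6.94 and 7.00 in KO at +S, 7.86 and 7.86 in Col at -S, and 6.34 and 6.48 in Col at +S. No group overlapped with another. The order of the means was that of GRXC2: 8.70 ± 0.08 in KO at -S, 7.86 ± 0.01 in Col at -S, 6.97 ± 0.05 in KO at +S, 6.41 ± 0.10 in Col at +S and 5.56 ± 0.20 in OX at +S, a range of 8.83-fold. The spiked control transcripts ran steeper than their nominal amounts on these arrays, so folds of MSRB5 and of the other genes may be overstated.

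MSRB5 was 3.32-fold higher at -S than at +S in KO (1.73 ± 0.12) and 2.74-fold higher in Col (1.45 ± 0.12). The lines gave 1.70 and 1.76 in KO, and the numbered arrays 1.53 and 1.38 in Col. Ranked among 22197 probe sets, the difference was the 85th highest in KO and the 81st highest in Col. In the same 2 rankings GRXC2 stood 168th and 404th, GR1 758th and 2043rd, and STR18 13017th and 109th. For MSRB5, KO lay above Col by 0.84 ± 0.12 at -S and by 0.56 ± 0.12 at +S, and the interaction was 0.28 ± 0.17, or 0.54 after quantile normalization. In OX at +S, MSRB5 was 0.85 ± 0.12 lower than in Col at +S, the 97th lowest of all differences there and the only 1 of the 4 genes past the threshold. Without KO -S line 4 the call at -S was lost, with 0.78 to 0.90 over the omissions, as it was in a fit on the arrays compared alone. The OX call was lost without Col +S 1, Col +S 2 or OX line 6, with -0.99 to -0.71 over the omissions, with the replicate block and in a fit on the arrays compared alone.

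**Figure D2:**
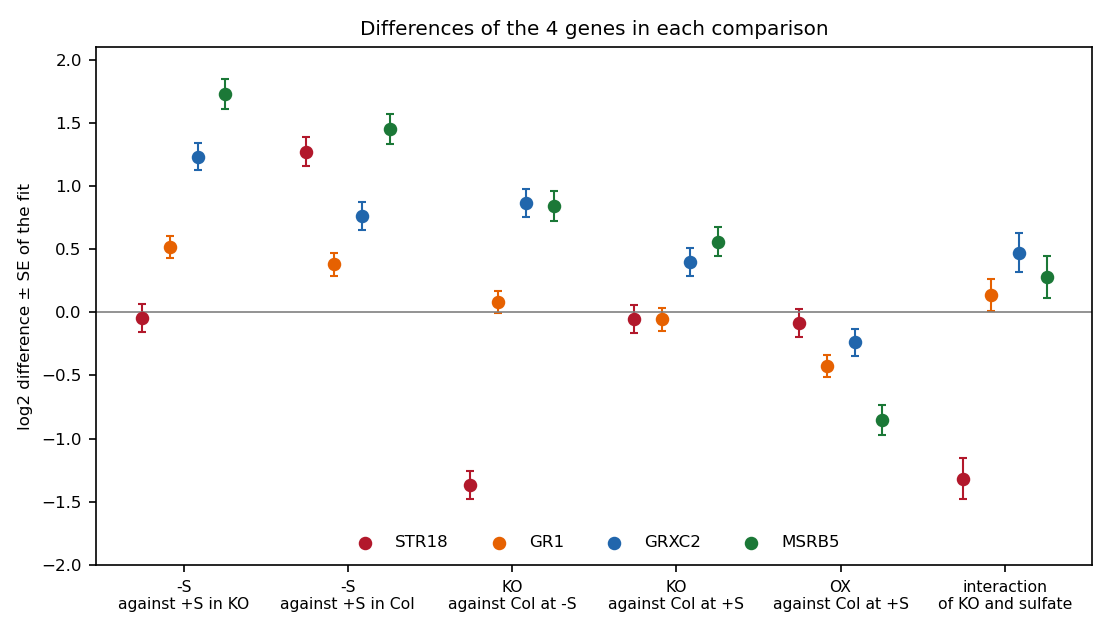
Log2 differences ± SE of the fit for the 4 genes in each comparison: -S against +S in KO, -S against +S in Col, KO against Col at -S, KO against Col at +S, OX against Col, and the interaction (KO response minus Col response). STR18 has 1.27 in Col and -0.04 in KO, whereas GR1, GRXC2 and MSRB5 lie above 0 in both genotypes and all 4 lie below 0 in OX.

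The other methionine sulfoxide reductases gave no call. Of 14 listed genes 4 besides MSRB5 were measured, and none passed the threshold in any of the 6 comparisons. MSRB6, a neighbour of MSRB5 in locus number (AT4G04840), lay close to background at 0.01 and -0.03 in KO at -S, -0.15 and -0.34 in KO at +S, -0.50 and -0.29 in Col at -S, and 0.12 and -0.16 in Col at +S. Its response was 0.24 ± 0.13 in KO (limma adjusted p = 0.38) and -0.37 ± 0.13 in Col (limma adjusted p = 0.11), and in OX it stood at -0.46 ± 0.13 against Col (limma adjusted p = 0.23). On both Col arrays at -S and on both OX arrays MSRB6 lay under background, so the differences in Col and in OX have no measured size. MSRB9 lay at 6.38 and 6.60 in Col at -S, against 6.35 and 6.44 in Col at +S, a difference of 0.10 ± 0.11 (limma adjusted p = 0.67). MSRB3 stood at -0.26 ± 0.12 in OX against Col (limma adjusted p = 0.59), and MSRA5 at -0.16 ± 0.11 in KO at -S against +S (limma adjusted p = 0.50).

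Counted together, 3 of the 4 genes were past the threshold for -S against +S in KO, all higher, where 2.92% of all probe sets were higher past it. In Col all 4 were, where 4.44% of all probe sets were higher past it. In KO against Col at -S 2 were higher and 1 lower past the threshold, where 2.85% of probe sets passed in either direction. In KO against Col at +S none of the 4 passed, where 0.0225% of probe sets did, that is 5 probe sets, against 1235 at an unadjusted p under 0.05. In OX against Col 1 of the 4 passed, where 0.405% of probe sets were lower past the threshold, and in the interaction 1 did, where 0.135% were lower and 0.748% passed either way. Because the genes were chosen on these contrasts, nothing is read from these shares.

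At -S against +S the arrays did not overlap for 3 of the 4 genes in KO and for all 4 in Col, all higher, as was so for 25% and 25.4% of all probe sets. Between KO and Col at -S they did not overlap for any of the 4, where 44.6% of all probe sets did not in either direction. Arrays of OX and Col at +S did not overlap for any of the 4 genes, all lower in OX, as was so for 15.9% of all probe sets. At +S, KO and Col did not overlap for GRXC2 and MSRB5, which were higher in KO, or for GR1, which was lower, where 41.8% of all probe sets did not overlap in either direction. With 2 arrays a side, lack of overlap is common and is given here as a description.

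Of the 3 shoot markers above background, 1 fell at -S in KO and 3 in Col, together with the responses above, and PRK was called in both but lay under background throughout. LHCB4.1, a light-harvesting protein gene, fell by 0.67 ± 0.11 in KO (limma adjusted p = 0.0087) and by 0.69 ± 0.11 in Col (limma adjusted p = 0.0065). In Col RCA, the Rubisco activase gene, fell by 0.93 ± 0.17 (limma adjusted p = 0.011) and PSAE-1, a photosystem I subunit gene, by 0.77 ± 0.18 (limma adjusted p = 0.032), with 1 of 2 Col arrays at -S above background for PSAE-1. The LHCB4.1 call in KO was lost without KO +S line 1, KO +S line 4 or KO -S line 1 (-0.72 to -0.62 over the omissions), and that in Col without Col +S 2 (-0.72 to -0.66). The RCA call was lost without Col +S 2 or Col -S 2 (-1.11 to -0.74). The PSAE-1 call was lost without Col +S 2, Col -S 1 or either KO +S array (-0.97 to -0.56) and in a fit on the Col arrays alone. The summed linear level of the 4 measured shoot markers was 9.85 to 9.98 in KO at -S, against 15.2 to 15.5 in KO at +S, and 11.0 to 11.7 in Col at -S, against 18.1 to 20.2 in Col at +S. In OX at +S it was 14.9 to 16.9, below Col at +S. The summed level of the 2 root markers was 371 to 445 in KO at -S, against 506 to 516 in KO at +S, 481 to 516 in Col at -S, against 441 to 564 in Col at +S, and 415 to 492 in OX at +S. Such sums weigh probe sets by their brightness. The shoot sum includes PRK, which lay under background, and the root sum rests almost wholly on PYK10. The difference between the 3′ and 5′ actin control probe sets, a measure of RNA integrity, was 0.72 in OX line 6 and 0.65 in OX line 12. In KO lines 1 and 4 it was 0.77 and 0.61 at -S, and 0.90 and 0.78 at +S. For Col arrays 1 and 2 it was 0.76 and 0.79 at -S, and 0.95 and 0.79 at +S. The part of these values in the differences of the 4 genes was not tested.

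Over 8 lists of sulfur transfer, glutathione, redox and peroxide genes with 162 genes in all, 56 were measured besides the 4. At -S in KO 8 of the 56 were higher past the threshold and 1 lower, beside 2.92% and 3.5% of all probe sets. In Col 4 were higher and 5 lower, beside 4.44% and 5%. In KO against Col at -S 4 were higher and none lower, beside 1.73% and 1.12%. Of these calls, 1 higher in KO, 2 lower in Col and 2 higher in KO against Col had a group under background and no bound on the fold, so they show no measured difference. At +S none of the 56 differed past the threshold in KO or in OX against Col by limma, where at an unadjusted p under 0.05 all probe sets counted 1235 in KO and 1999 in OX. Median differences of the 56 were -0.07 in KO and -0.04 in Col for -S against +S, and 0.07 for KO against Col at -S, beside 0.00028, 0.018 and -0.04 over all probe sets.

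**Figure D3:**
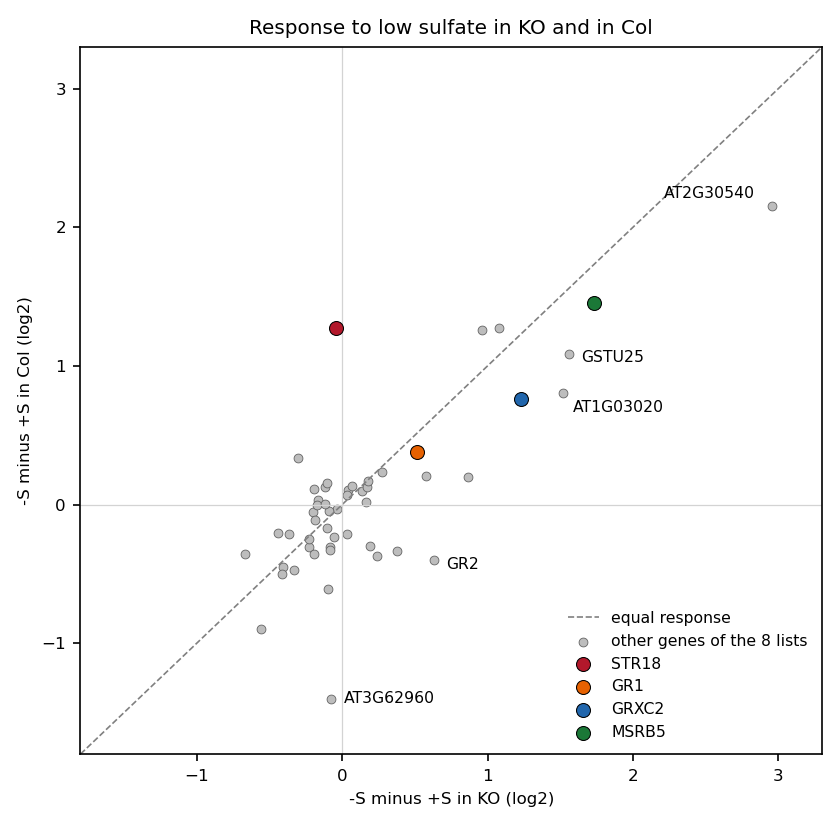
Response to low sulfate (-S minus +S, log2) in KO against that in Col for 51 genes, the 4 named genes and 47 measured list genes, with those under background in all 4 groups left out. GR1, GRXC2 and MSRB5 lie in the quadrant higher in both genotypes, and STR18 lies at 1.27 for Col and -0.04 for KO; the axes share no arrays, but points are genes and not replicates.

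Among the remaining lists, GSTU25, a tau-class glutathione transferase listed among oxidative stress responsive genes, rose at -S by 1.56 ± 0.20 in KO (limma adjusted p = 0.0019) and by 1.08 ± 0.20 in Col (limma adjusted p = 0.010). The Col call was lost without Col +S 1, Col +S 2 or Col -S 2, with 1.05 to 1.12 over the omissions. AT2G21640 of the same list was called higher at -S in KO and higher in KO than in Col at -S, but it lay above background on 1 array in all, KO -S line 1, so no size is given. In the list of peroxide and superoxide scavenging 1 of 5 measured genes rose at -S in KO, AT3G52960 by 0.58 ± 0.10 (limma adjusted p = 0.010), a call lost without KO +S line 1 or KO -S line 4 (0.49 to 0.67) and in a fit on the KO arrays alone. No thioredoxin of 9 measured passed for low sulfate, and 1 was higher in KO than in Col at -S: THX, the plastid thioredoxin x, at 3.38 and 3.13 in KO, against 2.57 and 2.26 in Col, a difference of 0.84 ± 0.13 (limma adjusted p = 0.010). That call was lost without Col -S 2 or KO -S line 1, with 0.69 to 0.99 over the omissions, and in a fit on the arrays compared alone. The 2 measured genes of cysteine synthesis and sulfur release, LCD and NFS2, did not pass in any comparison. For -S against +S, LCD stood at -0.08 ± 0.10 in KO and -0.33 ± 0.10 in Col (limma adjusted p = 0.77 and 0.087), and NFS2, the plastid cysteine desulfurase, at 0.07 ± 0.09 and 0.13 ± 0.09 (limma adjusted p = 0.79 and 0.46).

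The patterns of the 4 genes over the 10 arrays were compared with each other and with 7514 single-gene probe sets, by Pearson's r as a description. Each of these had a mean over all arrays above the mean background, so it may lie under background in some groups. GRXC2 and MSRB5 correlated at 0.973, GR1 with MSRB5 at 0.955 and GR1 with GRXC2 at 0.882. STR18 correlated at 0.458 with GR1, 0.323 with MSRB5 and 0.161 with GRXC2. Such values over 10 arrays of 5 groups rest mainly on the group means, and the arrays share their growth and hybridisation.

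The genes most like STR18 were AT4G14060 (0.964), AT1G13830 (0.962), AT5G59210 (0.948), AT4G32470 (0.939) and the endoglucanase gene GH9B7 (0.939). The means of AT4G14060 were 3.84 in OX at +S, 3.62 in KO at -S, 3.56 in KO at +S, 5.05 in Col at -S and 3.56 in Col at +S, so that in OX it lay above Col at +S, where STR18 lay below. GR1 was most like AT3G47510 (0.975), ACLA-2 (0.971), a subunit of ATP citrate lyase, AT5G38020 (0.966), AT3G19000 (0.960) and AT1G74010 (0.958). GRXC2 was most like the ATP sulfurylase gene APS3 (0.984), AT4G10750 (0.978), AT1G17510 (0.974), HL (0.974), a HAL2-like gene, and MSRB5 (0.973). MSRB5 was most like HL (0.986), AT2G43600 (0.980), GRXC2 (0.973), AT4G20820 (0.961) and AT2G41730 (0.959). The means of AT2G41730 in OX at +S (-0.81) and in Col at +S (-0.63) lay under the background of those arrays, so its correlation rests partly on values under background. HL thus stood among the 5 most alike of both GRXC2 and MSRB5.

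**Figure D4:**
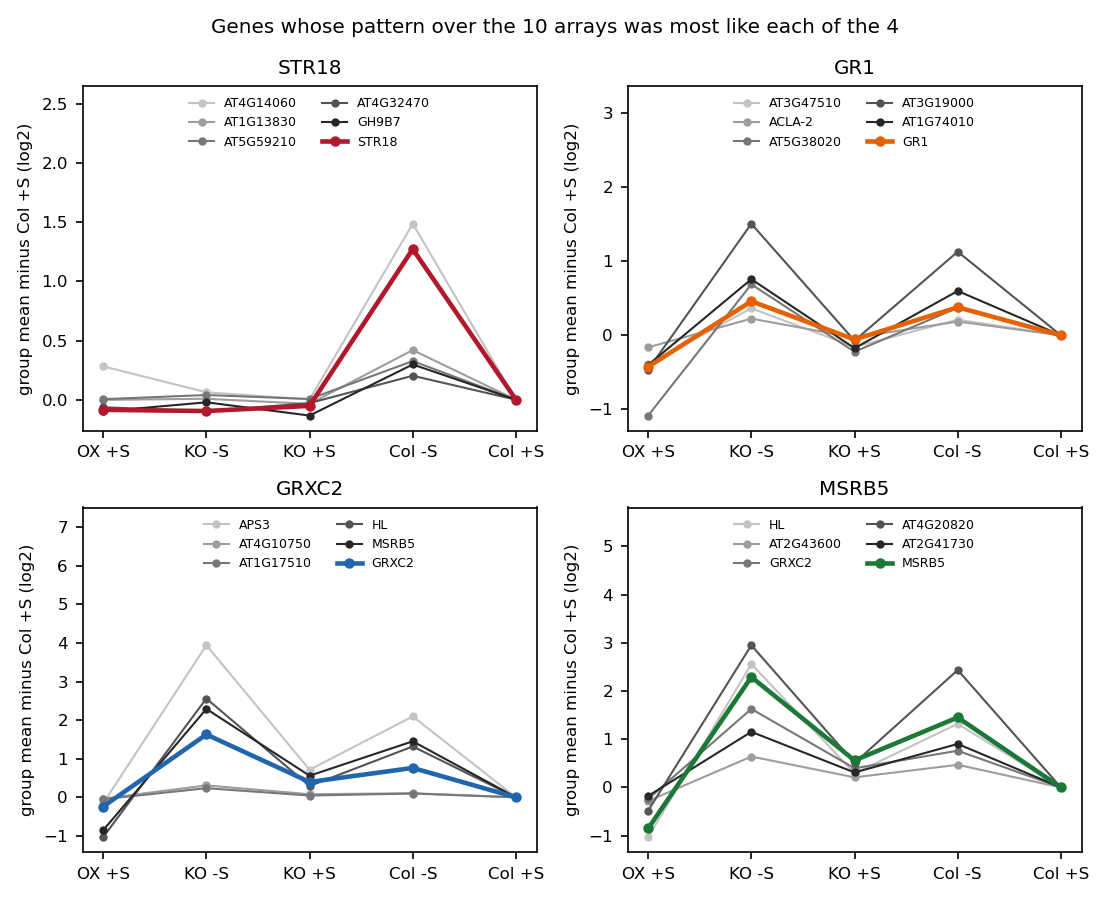
Group means minus the Col +S mean (log2) for each of the 4 genes, in colour, and its 5 most alike genes, in grey; groups run OX +S, KO -S, KO +S, Col -S and Col +S, and lines only join the points of a gene. STR18 and its 5 have their highest mean in Col at -S, and GRXC2 and MSRB5 and theirs in KO at -S.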

How the data were processed

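RNA of 10 root samples, 2 in each of 5 groups assigned from the sample titles, was hybridised to ATH1 arrays with 22810 probe sets. The 4 genes and all gene lists were chosen with earlier results of these data known. The deposited values are log10 expression values per probe set, made by the authors; background correction, summarization and normalization are not given in the sources used here. The log10 base was settled from the deposited spike controls, which spanned 2.06 units against 1.82 expected on a log10 scale and 6.06 on a log2 scale, with slopes of 1.06 to 1.14. Values were multiplied to log2 without further normalization. Of the probe sets 554 had no value, and 22197 were tested after 64 controls were also left out. The platform annotation gave 13513 a single gene, 503 several and none for the other 8794, and 13436 matched RefSeq names.

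The fit used limma 3.58.1 in R 4.3.3 (5 group means, 5 residual degrees of freedom, prior 3.81) and was tested on simulated data. Where the lower group lay under background (0.95 quantile of 22 bacterial controls), a fold is given as at least the brighter mean over that background or the probe set's own value. Array number limits the precision, and the arrays of KO and OX are lines.

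Besides the 4 genes, the text names their nearest relatives, up to 4 called genes of a list in each comparison by moderated t (up to 2 where none was called), the checks of genotype and treatment, and the 5 genes most alike to each. Each KO line was grown on both media, which pairs its arrays; their deviations from group means correlated at 0.0721, and those of the same Col numbers, which share only a number, at -0.141. Alternatives were the replicate block, array weights, a fit on the arrays compared alone, quantile normalization, centring on array medians, a variance trend on intensity with robust estimation, leaving out the dimmest probe sets (by mean level), and leaving out each array. No sequences or coordinates are given.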

Additional observations from a re-analysis of the deposited data

Results flagged for a closer look

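The interaction of genotype and sulfate, the KO response minus the Col response to low sulfate, passed the threshold for 2 of the genes described. For STR18 it was -1.32 ± 0.16 on the log2 scale. It is a description, since STR18 was chosen on these arrays. For AT3G62960, a listed glutaredoxin, the fitted value was 1.32 ± 0.20 (limma adjusted p = 0.024). It rests on Col at -S, where both arrays lay under background, so it does not show that the responses differed. The call was lost in 8 of the 10 fits that left out 1 array, all but those without Col +S 1 or KO +S line 4 (1.12 to 1.53), and in a fit without the OX arrays. Groups of 2 arrays are too small for a check of single outlying arrays.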

How the results depend on the processing

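For the 4 genes and the other named genes, every difference past the threshold kept its direction under each alternative run; other probe sets were followed only as counts. Of 408 differences of the 4 genes under an alternative, 19 moved by more than the residual SD. Quantile normalization gave MSRB5 1.99 for -S against +S in KO, 1.07 for KO against Col at -S and 0.54 for the interaction, and 8 probe sets past the threshold for KO against Col at +S. Leaving out the dimmest probe sets, which leaves fewer to adjust over, gave 23 probe sets for KO against Col at +S and 267 for OX against Col, with 2 of the 4 genes in OX and 2 listed genes in the interaction. An intensity trend with robust variances gave 31, 260 and 251 probe sets for KO at +S, OX and the interaction, 2 of the 4 genes in OX, and 7 listed genes for KO against Col at -S and 2 for the interaction. Fits on the arrays compared alone, with fewer residual degrees of freedom, gave 986 probe sets for Col at -S against +S, 180 for KO against Col at -S and 71 for OX, 1 of the 4 genes for KO against Col at -S and 0 in OX, and 1 listed gene for KO against Col at -S and 0 in the interaction. Array weights gave 351 probe sets at -S and 69 at +S for KO against Col. The replicate block gave 342 probe sets for KO against Col at -S, 75 for OX and 106 for the interaction, and 0 of the 4 genes in OX; besides these and the losses named with GR1, MSRB5, GR2, AT2G40760 and AT4G27700, it ended the call of the shoot marker PRK in KO, which lay under background and lost that call in 8 settings, and no other call of a named gene. The causes were not tested.

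Over the omissions of 1 array, probe sets past the threshold ran from 564 to 1457 for -S against +S in KO (564, 842, 677 and 910 without KO +S line 1, KO +S line 4, KO -S line 4 and KO -S line 1), and from 897 to 2077 in Col (897, 990 and 1143 without Col +S 1, Col +S 2 and Col -S 2). They ran from 252 to 777 for KO against Col at -S (252, 274 and 304 without Col -S 2, KO -S line 1 and KO -S line 4), from 4 to 59 at +S (59 without KO +S line 4), from 36 to 131 for OX (36, 58, 50, 79 and 94 without Col +S 1, Col +S 2, OX line 6, OX line 12 and either KO +S array) and from 84 to 205 for the interaction (88, 110, 84, 106 and 108 without Col +S 1, Col -S 2, KO +S line 1, KO -S line 1 and KO -S line 4). Listed genes called ran from 5 to 9 for -S against +S in KO (5 without KO +S line 1) and from 4 to 9 in Col (4 without either Col +S array, 5 without either Col -S array). They ran from 2 to 7 for KO against Col at -S (7 without Col -S 1, 2 without Col -S 2 or KO -S line 1), from 0 to 1 at +S (1 without KO +S line 4, GRX480) and from 0 to 2 for the interaction (2 without KO +S line 4, 1 without Col +S 1 or Col -S 1, and 0 without each of the other 7). Of the 4 genes, 0 to 1 passed in OX. STR18 ran from 1.16 to 1.39 for low sulfate in Col, from -1.48 to -1.25 for KO against Col at -S and from -1.43 to -1.20 for the interaction. GRXC2 ran from 0.67 to 0.85 for low sulfate in Col, from 0.31 to 0.49 for KO against Col at +S, from -0.33 to -0.15 for OX and from 0.38 to 0.56 for the interaction. MSRB5 ran from -0.99 to -0.71 for OX. Of 2395 values of named genes, 78 lost and 21 gained a call. With 2 arrays a group, precision is limited by their number, and genes near background give small folds only as bounds.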
